A study of Mus musculus with 17 samples.

Results

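The genes that mark the endothelial cells lining blood vessels (Pecam1, Cdh5, Kdr, Flt1, Tek, Tie1, Vwf, Emcn, Esam and Cldn5) were followed in RNA sequencing of mouse prostate tissue and prostate tumours. They were found by symbol and gene identifier, and all 10 of 10 were listed among the 13907 genes kept for the genotype groups and among the 39179 kept for the inducible model. The Ctnnb1 group (n = 3, tumours, about 12 months) carried a heterozygous Ctnnb1 allele lacking exon 3, written ex3 delta/+ in the labels. Loss of that exon leaves a beta-catenin protein that escapes breakdown. The combined group (n = 3, tumours, about 6 to 8 months) carried that allele with a further engineered change. Wild-type prostate (n = 3, 12 months) was the control of both. The inducible model carried the combined alleles, made by the Nkx3-1CreERT2 driver, a Cre that becomes active in Nkx3-1-expressing prostate epithelium after induction. It was androgen-deprived (ADT, n = 3) or mock-treated (n = 2), all at about 15 months. All mice were C57BL/6. The labels do not spell out the driver of the non-inducible alleles, and they do not say that each library came from a separate animal, so p-values measure the spread between these libraries. A further genotype group of 3 libraries is not reported here.

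Endothelial cells form the inner wall of vessels and hold to each other through junction proteins such as VE-cadherin. They grow out as new sprouts when vascular endothelial growth factor (VEGF) binds its receptors, led by tip cells at the front of the sprout, while angiopoietins acting on Tek steady or loosen the finished wall. In bulk tissue a lower value can come from fewer endothelial cells or from less RNA per cell, and these cannot be told apart.

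Each value is a read count of a gene after the authors' scaling and rounding, called a scaled count here. Their totals ran from 32455483 to 35120175 in the Ctnnb1 and combined libraries and from 45675083 to 47248750 in wild-type libraries. The 10 genes were detected in every library, with values between 122 and 3315 in the genotype groups and between 210 and 7809 in the inducible model. Epithelial genes, which mark the bulk of a prostate sample, had summed levels over 9 genes of 87530 to 121414 in Ctnnb1, 96795 to 133295 in combined and 71222 to 83430 in wild-type libraries. The pieces differed in other tissue. Smooth muscle genes were lower for 6 of 6 in each tumour group, with sums of 1256 to 2785 in Ctnnb1 and 5019 to 17852 in combined libraries against 135981 to 175223 in wild-type libraries, and none of them was at 0. Macrophage and monocyte genes were higher for 7 of 10 and lower for 1 in the Ctnnb1 group (sums 11069 to 20177) and higher for 8 of 10 in the combined group (13418 to 52242), against 5266 to 5774 in wild-type libraries. Several of the macrophage calls in the Ctnnb1 group were lost when single libraries were left out. The part of these tissues in the endothelial values was not tested. Changes are given as log2 changes of value + 1, and a gene was called where the adjusted p of limma's moderated test (Benjamini-Hochberg over all genes) was under 0.05. By that rule 28.9% of all 13907 genes were higher and 29.6% lower in the Ctnnb1 group. In the combined group 28.3% were higher and 29.5% lower. The smooth muscle and macrophage counts stand beside these shares.

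The 250 bases before the transcription start are shown for 4 genes: Kdr and Flt1, receptors called higher in the combined group, and Tek and Emcn, which were not called there. RefSeq promoters (build GRCm38.p6) matched 6 of the 10 genes, these 4 with Tie1 and Cldn5. Capitals mark motifs of endothelial transcription factor families found by letter on either strand.
Kdr (chr5:75978456-75978705, minus strand): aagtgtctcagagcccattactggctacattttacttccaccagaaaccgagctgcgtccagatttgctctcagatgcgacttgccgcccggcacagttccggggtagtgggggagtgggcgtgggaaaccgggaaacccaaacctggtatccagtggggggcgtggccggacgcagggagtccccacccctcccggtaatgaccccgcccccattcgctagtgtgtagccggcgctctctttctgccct
Flt1 (chr5:147726012-147726261, minus strand): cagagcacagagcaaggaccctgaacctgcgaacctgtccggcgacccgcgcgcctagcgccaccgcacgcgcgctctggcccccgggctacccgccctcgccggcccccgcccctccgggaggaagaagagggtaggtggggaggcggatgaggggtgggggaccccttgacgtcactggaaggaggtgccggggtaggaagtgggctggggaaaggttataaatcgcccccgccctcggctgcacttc
Tek (chr4:94739039-94739288, plus strand): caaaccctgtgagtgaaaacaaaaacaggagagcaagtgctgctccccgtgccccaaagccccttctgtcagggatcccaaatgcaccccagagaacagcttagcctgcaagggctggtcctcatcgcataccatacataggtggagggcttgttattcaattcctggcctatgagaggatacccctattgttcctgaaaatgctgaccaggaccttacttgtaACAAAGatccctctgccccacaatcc
Emcn (chr3:137340828-137341077, plus strand): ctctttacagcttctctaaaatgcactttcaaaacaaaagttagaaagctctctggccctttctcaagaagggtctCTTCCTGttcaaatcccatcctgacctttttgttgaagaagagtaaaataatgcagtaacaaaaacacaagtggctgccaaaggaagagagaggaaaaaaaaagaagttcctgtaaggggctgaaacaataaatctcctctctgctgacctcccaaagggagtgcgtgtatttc
Emcn held the ETS motif CAGGAAG, read on the other strand as CTTCCTG, and Tek held the SOX motif ACAAAG. Over the full window of 300 bases, reaching 50 past the start, Tek also held the GATA motif AGATAA and Tie1 the KLF motif CCACACCC. No match to these, to the ETS motif CCGGAAG or to the FOX motif GTAAACA lay in the Kdr, Flt1 and Cldn5 windows. Among all 32851 promoters of that length, 13.3% held CAGGAAG, 8.9% CCGGAAG, 18.7% ACAAAG, 11.2% AGATAA, 3.6% GTAAACA and 3.6% CCACACCC, and the searched motifs do not overlap each other. The GC content was 60.7% for Kdr, 70.7% for Flt1, 52.0% for Tek and 41.0% for Emcn, beside a median of 52.7% over all promoters.

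The Ctnnb1 tumours were first compared with wild-type prostate. The 10 genes did not move together. Of the 10, Vwf and Esam were higher, Emcn was lower and 7 were not called, in a comparison where 28.9% of 13907 genes were called higher and 29.6% lower. Their median log2 change was 0.17, beside 0 over all genes tested. Called in either direction were 3 of 10 members and 58.5% of all genes.

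Emcn, an endothelial surface sialomucin of veins and capillaries (Entrez 59308, GRCm38 chromosome 3, 137341067 to 137432185), was at 284, 242 and 254 in Ctnnb1 libraries, against 794, 746 and 580 in wild-type libraries. Every Ctnnb1 library lay below every wild-type library, at 0.371 of the wild-type level (log2 change -1.43, SE 0.25, adjusted p 0.00159). Vwf, the clotting protein that endothelial cells store and release (chromosome 6, 125546774 to 125686679), was at 1407, 1355 and 2113 in Ctnnb1 libraries, against 923, 945 and 942 in wild-type libraries. The wild-type libraries lay close together and below all Ctnnb1 libraries (log2 change 0.76, SE 0.18, adjusted p 0.00744). The calls of Emcn and Vwf stood when any of the 6 libraries was left out. Esam, an adhesion protein of endothelial junctions and platelets (chromosome 9, 37528078 to 37538319), was at 717, 842 and 607 in Ctnnb1 libraries, against 563, 359 and 325 in wild-type libraries. The groups did not overlap (log2 change 0.83, SE 0.27, adjusted p 0.0285), but the call was lost without wild-type replicate 2 or 3 or without Ctnnb1 replicate 13 or 14 (adjusted p 0.0682 to 0.0951).

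Cdh5, which encodes VE-cadherin, the adhesion protein of endothelial junctions, was at 1186, 1260 and 1157 in Ctnnb1 libraries and 828, 653 and 698 in wild-type libraries. These groups did not overlap, yet the gene missed the threshold (log2 change 0.73, 95% interval 0.05 to 1.41, adjusted p 0.0611). It was called at equal totals (1.22, adjusted p 0.00477) and when the 6 libraries of these groups were fitted alone (0.73, adjusted p 0.00115), and in no other alternative (adjusted p 0.0605 to 0.212). Groups did not overlap for 71.5% of all genes. Cdh5 (chromosome 8, 104101625 to 104144511) overlaps the antisense gene Gm29682, and whether the counting used strand is not given in the sources used here. Pecam1, the platelet and endothelial adhesion molecule CD31 (chromosome 11, 106654217 to 106750628), averaged 989 ± 62.2 in Ctnnb1 libraries and 1077 ± 89.8 in wild-type libraries (SD, n = 3 each), a difference within the spread (log2 change -0.12, 95% interval -0.69 to 0.45). The claudin Cldn5, a tight junction protein of endothelium (chromosome 16, 18776847 to 18778262), averaged 154 ± 42.5 in Ctnnb1 and 211 ± 33.3 in wild-type libraries (log2 change -0.48, 95% interval -1.33 to 0.37).

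The 4 receptors were not called in the Ctnnb1 group. Kdr, the main signalling receptor for VEGF (chromosome 5, 75932827 to 75978458), averaged 650 ± 97.9 in Ctnnb1 libraries and 495 ± 130 in wild-type libraries. Flt1, a VEGF receptor whose soluble form binds the ligand away from Kdr (chromosome 5, 147561604 to 147726011), averaged 723 ± 39.6 in Ctnnb1 and 618 ± 121 in wild-type libraries. Tek, the angiopoietin receptor Tie2 (chromosome 4, 94739289 to 94874976), averaged 221 ± 47.1 in Ctnnb1 and 300 ± 61.2 in wild-type libraries. Its partner receptor Tie1 (chromosome 4, 118471191 to 118490061) averaged 594 ± 24.2 in Ctnnb1 and 567 ± 156 in wild-type libraries. The groups overlapped for each of the 4, with log2 changes between -0.44 for Tek and 0.42 for Kdr and adjusted p between 0.192 and 0.763.

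**Figure D1:**
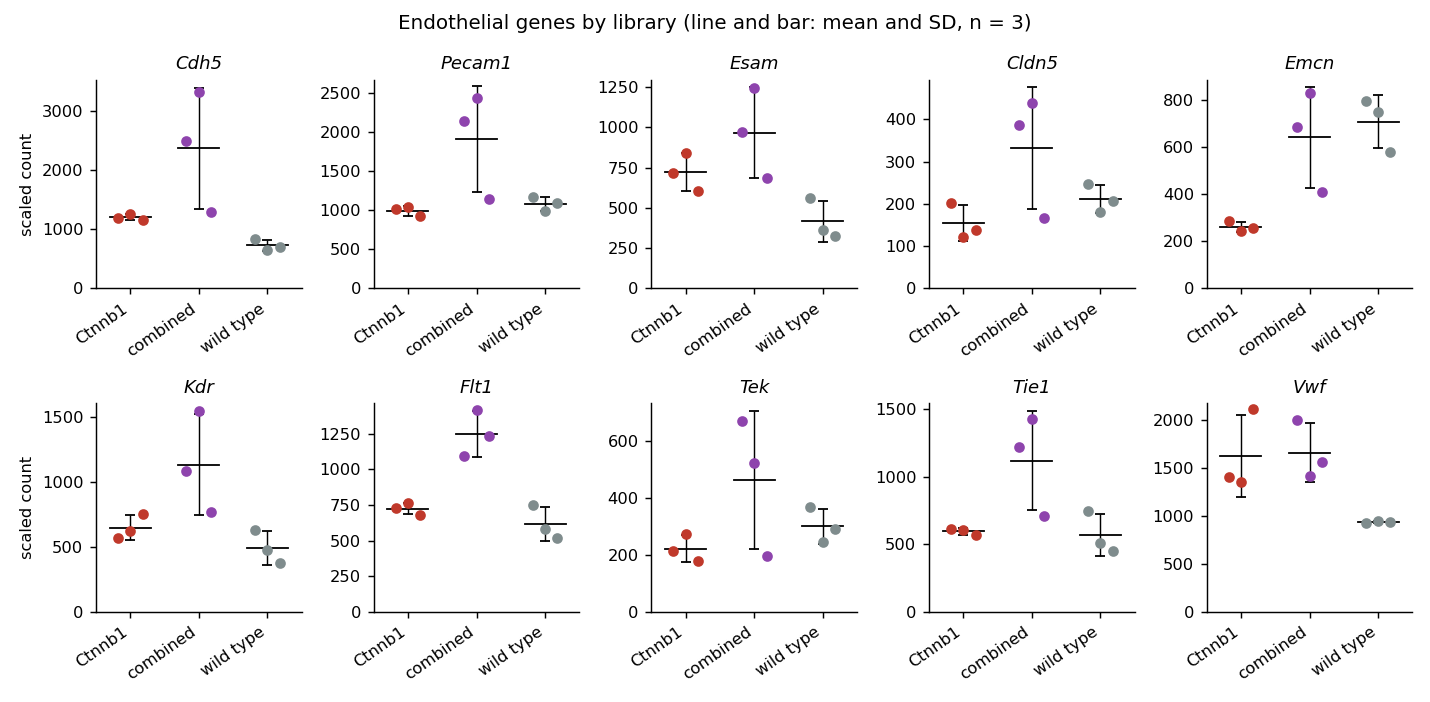
Scaled counts of the 10 endothelial genes (y axis, from 0, a separate scale for each gene) in Ctnnb1, combined and wild-type libraries. Points are libraries in replicate order, lines are means and bars SD (n = 3). Combined replicates 10 and 11 stand above combined replicate 12 for 8 genes, Vwf is low and even in the wild-type libraries, and Emcn is low in the Ctnnb1 libraries.

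The combined tumours carried more of these transcripts than wild-type prostate. Of the 10 genes, 7 were higher, none was lower and 3 were not called, while 28.3% of 13907 genes were called higher and 29.5% lower (57.8% in all). The groups did not overlap for 5 of the 10, all higher, as for 32.1% of all genes. The median log2 change was 0.88, beside -0.01 over all genes tested. The group was uneven: the summed level of the 10 genes was 8164 to 14593 in combined libraries, against 5467 to 7011 in wild-type libraries, and combined replicate 12 held the lowest combined value for 8 of the 10. Without that library 9 genes were called and the median was 1.06.

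Among junction genes, Cdh5 was at 2487, 3315 and 1286 in combined libraries, against 828, 653 and 698 in wild-type libraries. All combined libraries were above all wild-type ones, 3.04-fold on average (log2 change 1.60, SE 0.30, adjusted p 0.00206). Esam was at 968, 1247 and 684 in combined libraries, against 563, 359 and 325 in wild-type libraries, again without overlap (log2 change 1.22, SE 0.27, adjusted p 0.00516). Pecam1 was at 2138, 2434 and 1140 in combined libraries, against 1162, 983 and 1086 in wild-type libraries. Replicate 12 lay inside the wild-type range (log2 change 0.75, SE 0.25, adjusted p 0.0296), and the call was lost when any wild-type library or combined replicate 10 or 11 was left out (adjusted p 0.0544 to 0.0918). Cldn5 was at 387, 439 and 167 in combined libraries, against 247, 181 and 206 in wild-type libraries, and was not called (log2 change 0.54, 95% interval -0.31 to 1.38). Emcn, at 682, 830 and 409 in combined libraries and 794, 746 and 580 in wild-type libraries, overlapped between the groups (log2 change -0.19, 95% interval -0.76 to 0.38).

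Both VEGF receptors were higher. Kdr was at 1088, 1549 and 771 in combined libraries, against 633, 476 and 376 in wild-type libraries, with no overlap (log2 change 1.17, SE 0.27, adjusted p 0.00664). Flt1 was at 1095, 1416 and 1237 in combined libraries, against 752, 584 and 517 in wild-type libraries. It had the smallest p of the 10 genes (log2 change 1.02, SE 0.15, adjusted p 0.00066), and replicate 12 was not low for it. Of the angiopoietin receptor pair, Tie1 was at 1221, 1424 and 709 in combined libraries, against 743, 511 and 447 in wild-type libraries. It was called higher (log2 change 0.95, SE 0.27, adjusted p 0.0159) although replicate 12 overlapped, and the call was lost without wild-type replicate 2 or 3 or combined replicate 10 or 11 (adjusted p 0.0509 to 0.0573). Tek was at 668, 522 and 196 in combined libraries, against 366, 245 and 290 in wild-type libraries, with replicate 12 below every wild-type library (log2 change 0.46, 95% interval -0.50 to 1.43, not called). Vwf was at 2000, 1417 and 1565 in combined libraries, against 923, 945 and 942 in wild-type libraries, and was higher without overlap (log2 change 0.81, SE 0.18, adjusted p 0.00568). Without replicate 12, Tek (log2 change 0.99, adjusted p 0.00885) and Cldn5 (0.97, adjusted p 0.0109) were called too.

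**Figure D2:**
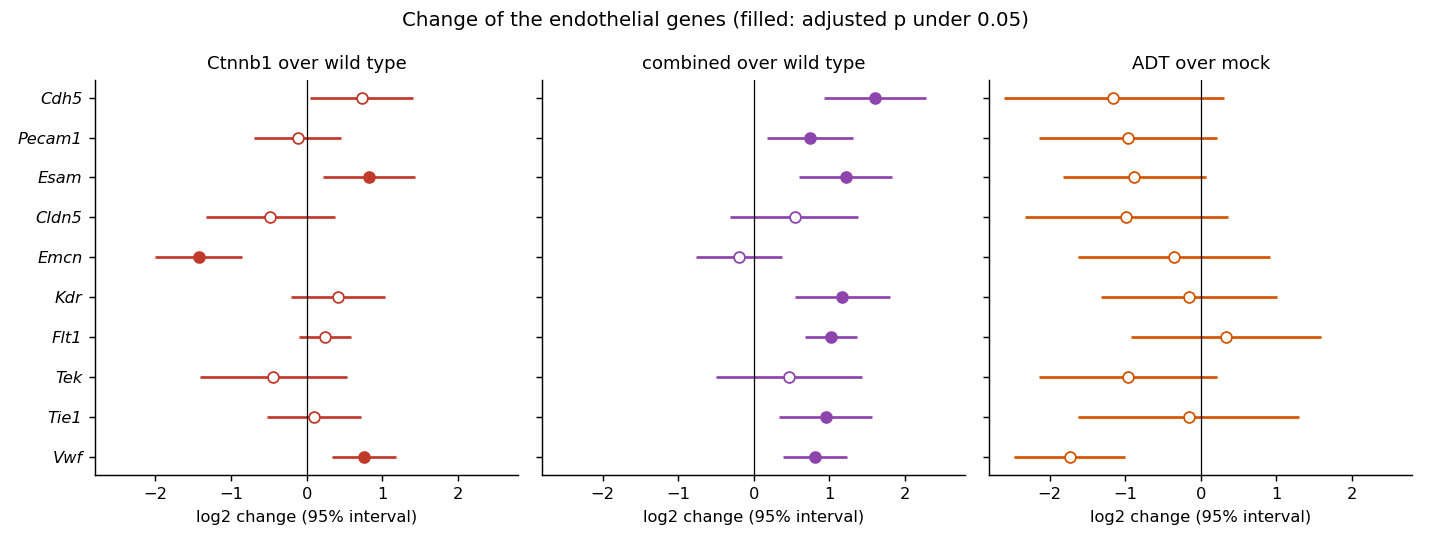
Log2 change (x axis) of each endothelial gene (rows) with its 95% interval, for Ctnnb1 over wild type, combined over wild type and ADT over mock. Filled points have an adjusted p under 0.05 in limma: 3 of 10 genes, with Emcn below 0, then 7 of 10, all above 0, then none.

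Both comparisons share the wild-type libraries. Their scaling also bears on the direction: when libraries were set to equal totals, the median of all genes moved to 0.49 in the Ctnnb1 and 0.50 in the combined comparison, and the share of calls that were higher was 78.9% in place of 49.4% for the Ctnnb1 group and 81.9% in place of 48.9% for the combined group. The member medians then stood at 0.66 in the Ctnnb1 group and 1.40 in the combined group, so the distance to the median of all genes was 0.17 in the Ctnnb1 and 0.90 in the combined group. Emcn stayed lower in the Ctnnb1 group (log2 change -0.94, adjusted p 0.00864), and Pecam1, Tek and Cldn5, which were not called, turned from below to above 0.

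Levels within a library do not depend on that scaling. Each gene was therefore set against the mean log2 level of the other 9 in the same library. Emcn averaged -1.24 ± 0.12 in Ctnnb1 and -0.72 ± 0.07 in combined libraries, against 0.42 ± 0.19 in wild-type libraries (SD, n = 3 each). It thus stood above the mean of the other 9 genes in wild-type prostate and below that mean in both tumour groups. Cdh5 averaged 1.21 ± 0.06 in Ctnnb1 and 1.32 ± 0.25 in combined libraries, against 0.47 ± 0.10 in wild-type libraries. These genes were not alone. Between Ctnnb1 and wild-type libraries 5 genes stood higher without overlap, 3 stood lower without overlap and 2 overlapped. The means of Esam (0.85) and Vwf (0.78) differed there by at least as much as that of Cdh5 (0.74), with a wider spread. Between combined and wild-type libraries 3 genes stood higher, 2 lower and 5 overlapped. Some gaps were narrow. The lowest combined value of Kdr was -0.02, against a highest wild-type value of -0.03. That of Esam was -0.21, against -0.22 in wild-type libraries. The share of all genes that separate in this way was not computed. These ratios are a description, and a relative rise of 1 gene can come from a fall of the others.

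**Figure D3:**
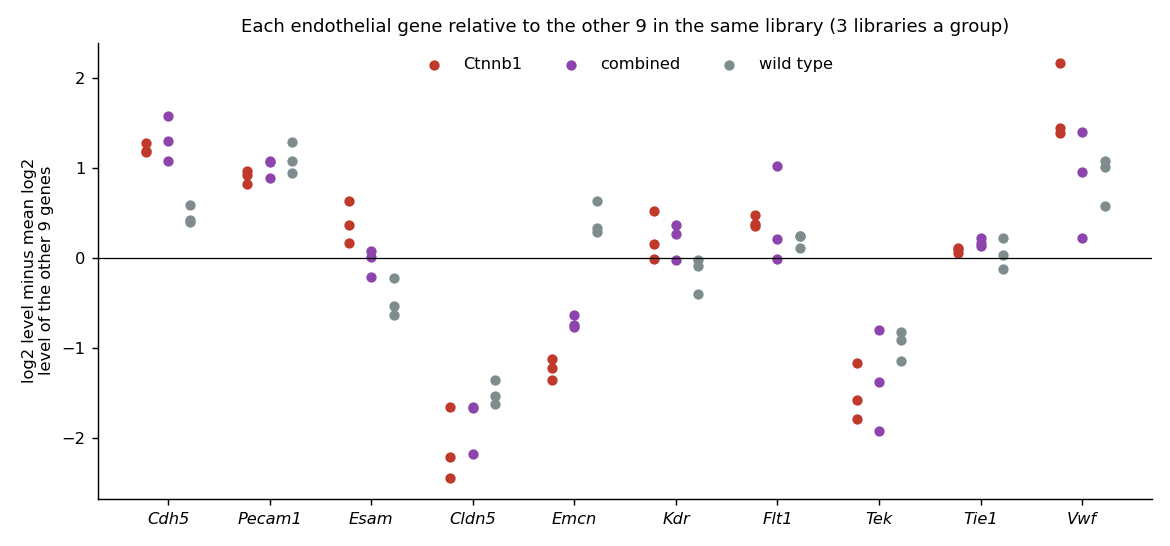
Log2 level of each endothelial gene minus the mean log2 level of the other 9 in the same library (y axis), by gene (x axis) and group, with 1 point for each of 3 libraries. Wild-type libraries lie above both tumour groups for Emcn and below both for Cdh5.

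Per kilobase of exon, the order of the genes differed by group. Cdh5 led in Ctnnb1 (286 ± 12.6 scaled counts per kb) and combined libraries (562 ± 243), followed by Esam at 252 ± 41.0 in Ctnnb1 and 337 ± 98.2 in combined libraries. In wild-type libraries Pecam1 (173 ± 14.4 per kb) and Cdh5 (173 ± 21.6 per kb) shared the highest level, ahead of Cldn5 (149 ± 23.5) and Esam (145 ± 44.9), neighbours within each other's spread. Emcn was the fifth in wild-type libraries (131 ± 20.8 per kb) and the ninth in Ctnnb1 libraries (48.1 ± 4.0 per kb).

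Further endothelial genes were read from a list of 26. In the Ctnnb1 group 4 were higher and 1 lower, shares below the 28.9% and 29.6% of all genes, with a median log2 change of 0.11. In the combined group 17 were higher and none lower, beside 28.3% and 29.5% of all genes (median 1.02), with 11 called without combined replicate 11 and 23 without replicate 12. Ecscr, a surface protein of endothelial cells, was at 1211, 821 and 926 in the Ctnnb1 libraries, and at 993, 1295 and 1078 in the combined ones, against 214, 174 and 161 in wild-type libraries (log2 change 2.41, adjusted p 3.31e-05 in the Ctnnb1 and 2.61, 2.21e-05 in the combined group). Cd93, a receptor of endothelium and of myeloid cells, was at 1040, 1314 and 1088 in the Ctnnb1 libraries, and at 2360, 3369 and 1398 in the combined ones, against 360, 315 and 326 in wild-type libraries (log2 change 1.77, adjusted p 0.000883 in the Ctnnb1 and 2.74, 0.000104 in the combined group). Both genes were clear of the wild-type range in every tumour library. Gpihbp1, which anchors lipoprotein lipase on capillaries (log2 changes 1.28 in Ctnnb1 and 1.40 in combined tumours), and the guidance receptor Robo4 (0.83 in Ctnnb1 and 1.41 in combined tumours) were higher too. The genes named from the Ctnnb1 group are those called and do not stand for the list, of which 21 were not called there.

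Genes of sprouting tip cells had the highest median of the vessel lists in both tumour groups. The lists were chosen with earlier results of these data known, so this order is a description only. Of the 8 tip cell genes, 6 were higher in the Ctnnb1 group (median log2 change 1.44) and 7 in the combined group (median 1.91), and none was lower. Of all genes 28.9% were called higher in the Ctnnb1 and 28.3% in the combined comparison, with medians of 0 and -0.01. Esm1, a secreted proteoglycan of tip cells, was at 502, 518 and 446 in the Ctnnb1 libraries, and at 586, 740 and 967 in the combined ones, against 20, 20 and 26 in wild-type libraries. That is 4.42 higher in the Ctnnb1 group (SE 0.21, adjusted p 7.44e-06) and 5.04 higher in the combined group (SE 0.21, adjusted p 5.79e-06) on the log2 scale. Apln, the ligand of the apelin receptor on endothelium, was at 474, 556 and 397 in the Ctnnb1 libraries, and at 527, 983 and 927 in the combined ones, against 18, 14 and 29 in wild-type libraries (log2 change 4.53, adjusted p 3.03e-05 in the Ctnnb1 and 5.26, 1.74e-05 in the combined group). No tumour library came near the wild-type range for either gene.

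Pdgfb, which recruits pericytes (log2 changes 1.18 in Ctnnb1 and 1.91 in combined tumours), and the chemokine receptor Cxcr4, which leukocytes also carry (2.03 in Ctnnb1 and 2.78 in combined tumours), were also higher, with calls that stood without any library. Set against the mean of the 10 endothelial genes in the same library, Esm1 ran from -0.30 to -0.13 in Ctnnb1 and from -0.91 to 0.56 in combined libraries, against -4.95 to -4.17 in wild-type libraries. Apln ran from -0.47 to -0.03 in Ctnnb1 and from -1.06 to 0.50 in combined libraries, against -5.09 to -4.01 in wild-type libraries. Esm1 and Apln therefore differed far more than the mean of the 10 genes, and a scaling factor per library does not enter this distance. Which cells held these transcripts was not measured. Over the genotype libraries, Pearson r with the mean of the standardised endothelial genes was -0.41 for Unc5b, 0.53 for Esm1 and 0.55 for Apln. It was 0.59 for Angpt2, 0.65 for Cxcr4, 0.70 for Dll4 and 0.77 for Pdgfb. Among combined libraries Esm1 was highest in replicate 12, which was low for most endothelial genes.

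**Figure D4:**
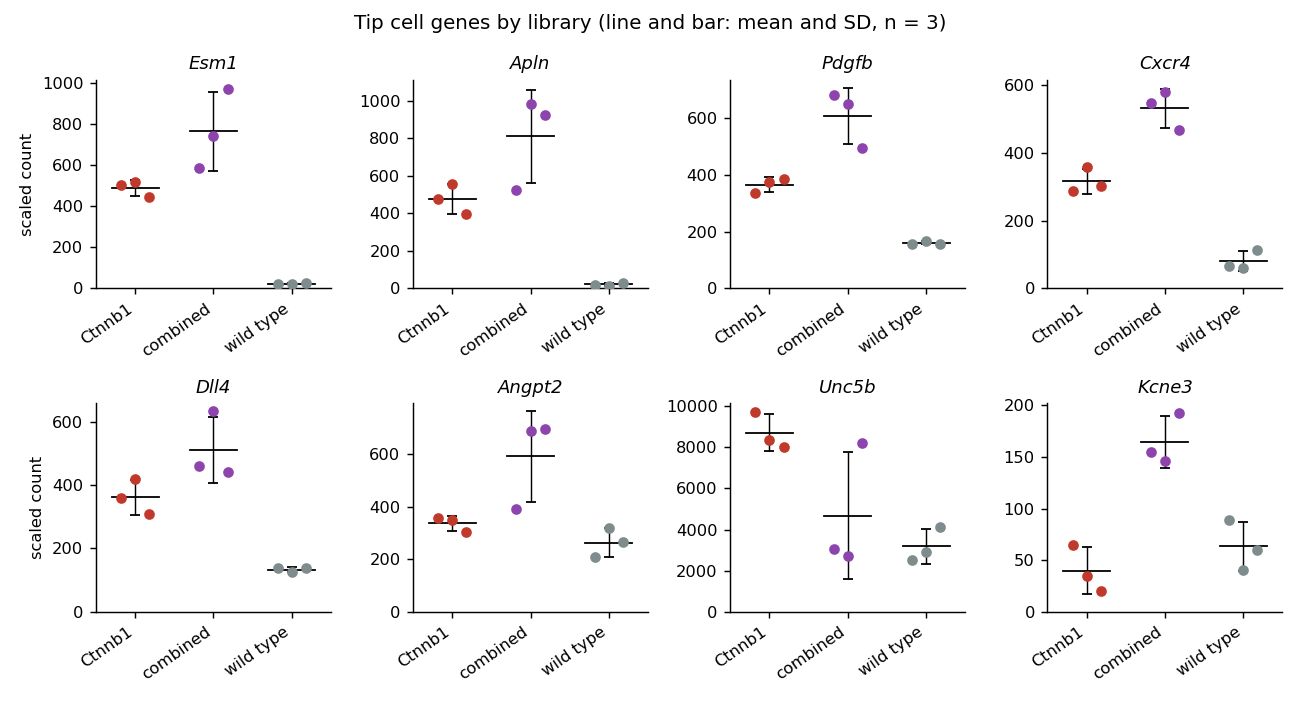
Scaled counts of 8 tip cell genes (y axis, from 0, a separate scale for each gene) in Ctnnb1, combined and wild-type libraries. Points are libraries, lines are means and bars SD (n = 3). Esm1 is at 446 to 967 in tumour libraries and 20 to 26 in wild-type libraries, and Apln is at 397 to 983 in tumour libraries and 14 to 29 in wild-type libraries.

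Of the VEGF and angiopoietin ligands and co-receptors, 1 of 10 was higher and 2 lower in the Ctnnb1 group, and 3 higher and 1 lower in the combined group. These counts are near or under the shares of all genes called in each direction, 28.3% to 29.6%, and single genes are given for their role. Vegfa, the ligand of Kdr and Flt1, was at 6018, 6266 and 5209 in the Ctnnb1 libraries, and at 6323, 9543 and 12978 in the combined ones, against 2986, 2865 and 2959 in wild-type libraries (log2 change 0.99, adjusted p 0.00546 in the Ctnnb1 and 1.65, 0.000418 in the combined group). Vegfb, a ligand of Flt1, was lower in both (-1.34, adjusted p 0.000105 in the Ctnnb1 and -1.42, 7.55e-05 in the combined group), and Pgf, also a ligand of Flt1, was lower in the Ctnnb1 group (-1.80, adjusted p 0.00565). Vegfa and Vegfb thus moved in opposite directions in both tumour groups. The VEGF co-receptor Nrp1 (1.28, adjusted p 0.00188) and the Tek antagonist Angpt2 (1.13, adjusted p 0.00492) were higher in the combined group. Angpt2 is counted among the tip cell genes as well.

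Other vessel lists were mixed, and their counts stand beside those over all genes (28.9% higher and 29.6% lower for Ctnnb1 tumours, 28.3% higher and 29.5% lower for combined tumours). None with so few members is read as a result about its list. Of 8 tested artery, vein and capillary genes, 3 were lower in the Ctnnb1 group: the venous receptor Ephb4 (log2 change -0.97), the venous regulator Nr2f2 (-0.38) and the Notch target Hey1 (-1.15), of which Ephb4 lost the call at equal totals and Nr2f2 changed sign there and lost the call when single libraries were left out. In the combined group the arterial ligand Efnb2 (0.78) and the gap junction gene Gja5 (1.83) were higher. Nr2f2 (-0.45, above 0 at equal totals) and Hey1 (-0.67) were lower there. The Gja5 and Hey1 calls rested on single libraries, and the Hey1 call was also lost at equal totals (-0.16, adjusted p 0.599). Of 7 pericyte genes, which mark the cells wrapped around capillaries, Higd1b (2.34) and Rgs5 (1.04) were higher and Cspg4 (-0.67) lower in the Ctnnb1 group, and Higd1b (3.13), Rgs5 (2.09), Pdgfrb (2.03) and Notch3 (0.87) were higher in the combined group. The Rgs5 and Cspg4 calls in the Ctnnb1 group and the Notch3 call were lost when single libraries were left out. At equal totals the Cspg4 call was lost too (-0.18, adjusted p 0.49).

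Of 4 tested leukocyte adhesion genes, Icam1 (log2 change 1.87), Vcam1 (1.60) and Selp (1.61) were higher in the combined group, where only the Icam1 call stood without any library, and Ackr1 (-1.96) was lower in the Ctnnb1 group, with a call that 3 of 6 left-out libraries ended. Of 6 tested lymphatic endothelial genes, Prox1 was higher in both tumour groups (3.12 in Ctnnb1 and 3.72 in combined), Lyve1 (-2.37) and Reln (-3.10) were lower in the Ctnnb1 group, and Flt4 (0.98) was higher in the combined group. The Lyve1, Reln and Flt4 calls each were lost without at least 1 library, and that of Lyve1 also at equal totals (adjusted p 0.0674). The lymphatic list therefore did not move one way in the Ctnnb1 group, and which cells held the Prox1 transcripts was not measured. Platelets carry Pecam1, Vwf and Esam as well. The platelet genes had 2 of 7 members listed, with sums of 142 to 151 in Ctnnb1, 205 to 733 in combined and 186 to 247 in wild-type libraries. Itga2b (-1.10) was lower in the Ctnnb1 group, a call lost at equal totals, and Pf4 (1.88) higher in the combined group. Fibroblast genes were higher for 4 of 6 in the combined group and lower for 1 of 6 in the Ctnnb1 group, with sums of 16596 to 26373 in Ctnnb1, 35178 to 561354 in combined and 30165 to 35870 in wild-type libraries. Most of the fibroblast calls in the combined group were lost when single libraries were left out. Combined replicate 12, low for most endothelial genes, also had the lowest sums of its group for fibroblast, macrophage (13418, against 52242 and 49660 in replicates 10 and 11), pericyte (5614, against 10387 and 15610) and smooth muscle genes (5019, against 14918 and 17852), and the highest for epithelial genes (133295, against 99031 and 96795). Their part in its endothelial values was not tested. Epithelial genes had 2 of 9 higher and 1 lower in the Ctnnb1 group and 3 higher and 1 lower in the combined group. The 1 listed red blood cell gene was not called in either.

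Androgen deprivation was compared with mock treatment within the inducible model, whose values come from separate files and were set beside no genotype group. None of the 10 endothelial genes was called. limma called 2 of 23289 genes, both higher (0.00859%) and none lower (0%), so the comparison had few calls anywhere. At an unadjusted p under 0.05 stood 1 of the 10 genes and 16.2% of all genes. The median log2 change of the 10 was -0.92, beside -0.02 over all genes tested, with 9 of 10 below 0. That median rests largely on mock replicate 1: it was -0.26 without that library and -1.47 without mock replicate 2.

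Mock replicate 1 was above mock replicate 2 for each of the 10 genes, by 1.66-fold to 3.36-fold with a median of 2.61, where the median over 12483 genes was 1.02. The summed level of the 10 genes was 12260 to 14233 in ADT libraries and 14407 to 35302 in mock libraries. Macrophage (sum 104983 in mock replicate 1 and 31271 in replicate 2), fibroblast (467805 and 87655) and pericyte genes (30844 and 9971) stood higher in mock replicate 1 as well. Against mock replicate 2, the 3 ADT libraries were all higher for Kdr, Flt1, Tie1 and Emcn and all lower for Pecam1, Tek, Vwf and Esam. The part of this library in the comparison was measured by leaving it out: Kdr (0.51), Tie1 (0.70) and Emcn (0.40) then had log2 changes above 0.

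Vwf was at 1405, 1314 and 1821 in ADT libraries, against 6404 and 3868 in mock libraries. Both mock libraries were above all ADT libraries by a wide gap (log2 change -1.73, SE 0.28, unadjusted p 0.00201, adjusted p 0.128). Tek was at 344, 500 and 450 in ADT libraries, against 1320 and 524 in mock libraries. Pecam1 was at 2138, 1805 and 1929 in ADT libraries, against 6320 and 2305 in mock libraries, and Esam at 643, 1092 and 805 in ADT libraries, against 2051 and 1129 in mock libraries. The groups did not overlap for these 4 genes, lower under ADT, as for 16.8% of all genes, and for Tek, Pecam1 and Esam the gap to mock replicate 2 was small. Their log2 changes were -0.96, -0.97 and -0.88, with 95% intervals that include 0.

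Cdh5 was at 2382, 1811 and 1613 in ADT libraries, against 7809 and 2325 in mock libraries. Cldn5 was at 369, 288 and 210 in ADT libraries, against 916 and 341 in mock libraries. One ADT library lay above mock replicate 2 for each of these genes (log2 change -1.16, 95% interval -2.61 to 0.30, for Cdh5 and -0.99, -2.33 to 0.36, for Cldn5). Emcn was at 638, 759 and 831 in ADT libraries, against 1614 and 558 in mock libraries (log2 change -0.36, 95% interval -1.63 to 0.91).

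Kdr was at 1198, 1740 and 1588 in ADT libraries, against 2645 and 1043 in mock libraries, and Tie1 at 1897, 1213 and 1507 in ADT libraries, against 3078 and 931 in mock libraries. The mock libraries enclosed the ADT libraries for both genes (log2 change -0.16 each, 95% interval -1.32 to 1.01 for Kdr and -1.62 to 1.30 for Tie1). Flt1 was the only 1 of the 10 with a log2 change above 0 (0.33, 95% interval -0.93 to 1.59). It was at 2964, 1738 and 3479 in ADT libraries, against 3145 and 1383 in mock libraries. The intervals are wide on both sides of 0, so these 3 genes are not shown to be alike under both treatments.

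**Figure D5:**
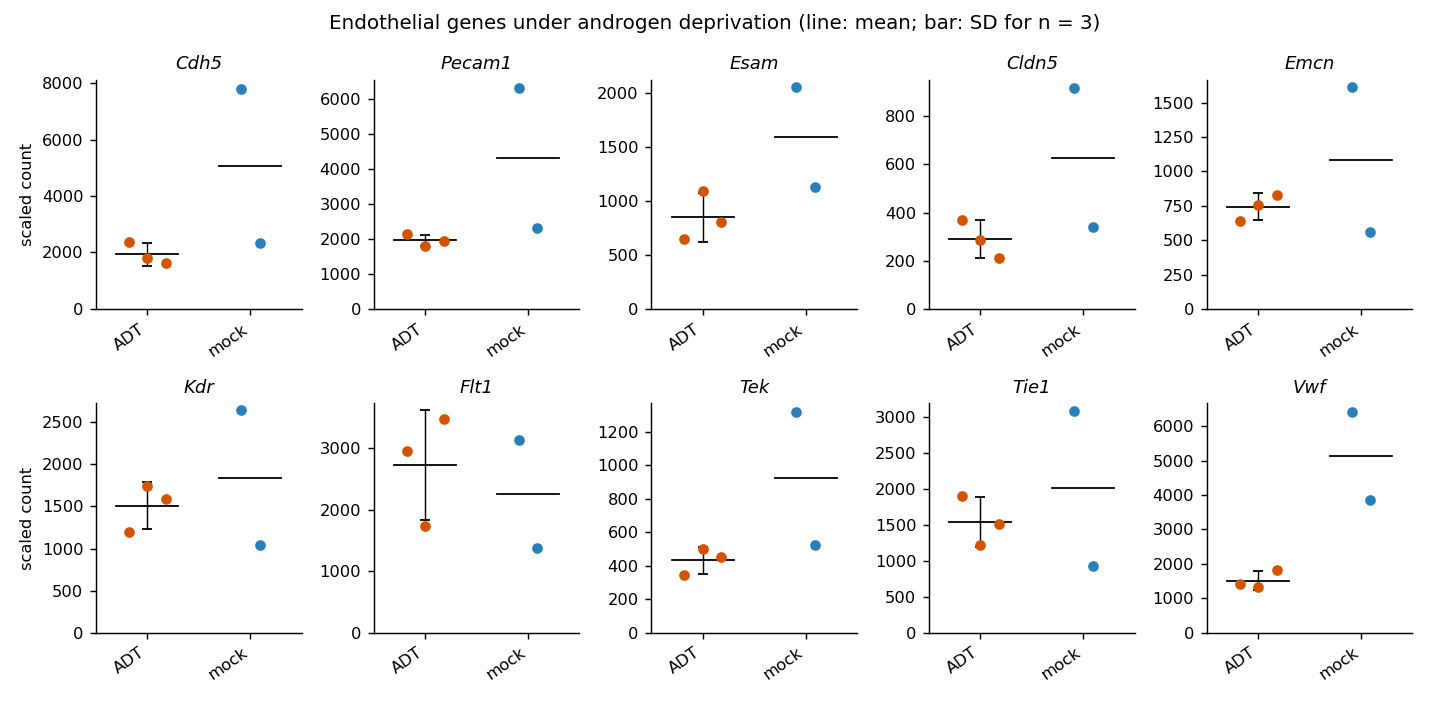
Scaled counts of the 10 endothelial genes (y axis, from 0, a separate scale for each gene) in ADT and mock libraries. Points are libraries in replicate order, lines are means and bars SD for the 3 ADT libraries. Mock replicate 1, the left mock point, is the highest library for every gene except Flt1, and Vwf is lower in all ADT libraries.

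Relative to the other 9 genes in the same library, Vwf averaged 0.51 ± 0.24 in ADT libraries (SD, n = 3) and stood at 1.31 and 1.98 in mock libraries. Flt1 averaged 1.40 ± 0.55 in ADT libraries and stood at 0.17 and 0.34 in mock libraries. Emcn ran from -0.87 to -0.47 in ADT libraries and stood at -0.90 and -1.12 in mock libraries, groups that barely separate. In all, 4 genes stood higher in ADT libraries without overlap (Flt1, Emcn, Kdr and Tie1), 2 stood lower (Vwf and Pecam1) and 4 overlapped. The share of all genes that separate in this way was not computed. With 3 libraries against 2 these are descriptions of the libraries.

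The other vessel lists had no call under ADT, and the genes with the smallest p are given as values. Log2 changes were below 0 for 23 of the 26 further endothelial genes (median -0.56) and for 7 of 8 tip cell genes (median -0.9). Of all 23289 genes, 11953 were below 0 (median -0.02). The sum over the 26 was 23249 to 26351 in ADT libraries, 45812 in mock replicate 1 and 17691 in mock replicate 2. The genes named here do not stand for their lists. S1pr1, a lipid receptor of endothelium, was at 2991, 3858 and 5086 in ADT libraries, against 1965 and 661 in mock libraries (log2 change 1.77, adjusted p 0.229). Clec14a, a receptor of endothelium, was at 2865, 3489 and 960 in ADT libraries, against 876 and 619 in mock libraries (1.53, adjusted p 0.336). Its matrix ligand Mmrn2 was at 611, 699 and 729 in ADT libraries, against 1828 and 930 in mock libraries (-0.94, adjusted p 0.273). Of tip cell genes, Unc5b was at 20381, 9002 and 12488 in ADT libraries, against 3401 and 4581 in mock libraries (1.74, adjusted p 0.177). Its Pearson r with the mean of the standardised endothelial genes was -0.64 over the ADT and mock libraries. Which cells held the Unc5b transcripts was not measured. Angpt2 was at 326, 504 and 499 in ADT libraries, against 886 and 935 in mock libraries (-1.07, adjusted p 0.187), and Apln at 270, 387 and 546 in ADT libraries, against 1123 and 631 in mock libraries (-1.13, adjusted p 0.296). These separations did not pass the test.

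Among ligands and co-receptors, Nrp2 (log2 change 1.85, adjusted p 0.189) and Angpt1 (-1.53, adjusted p 0.330) did not overlap between ADT and mock libraries. Of artery, vein and capillary genes, Gja5 (-2.47, adjusted p 0.177) and Ephb4 (0.87, adjusted p 0.222) did not overlap, and Nr2f2 did (-0.97, adjusted p 0.396). Of leukocyte adhesion genes, Selp (-1.17, adjusted p 0.187), Icam1 (-0.80, adjusted p 0.267) and Ackr1 (-1.14, adjusted p 0.380) had all ADT libraries below all mock libraries. Prox1, a lymphatic regulator, was at 10692, 25119 and 22306 in ADT libraries, against 989 and 1306 in mock libraries (4.0, adjusted p 0.0883), while Mmrn1 (-1.20, adjusted p 0.205) and Ccl21a (-0.78, adjusted p 0.271) ran the other way. Of the 7 lymphatic genes 6 had log2 changes below 0 (median -0.78), and Prox1 was the only 1 above 0. Over the 5 libraries of the inducible model, Prox1 had a Pearson r of -0.61 with the mean of the standardised endothelial genes. Which cells held the Prox1 transcripts was not measured. The pericyte genes Higd1b, Rgs5 and Notch3 had log2 changes of -1.07, -1.13 and -0.64 (adjusted p 0.410 to 0.465). Red blood cell genes were below 0 for 5 of 5 (median -1.15), with sums of 1614 to 2835 in ADT and 3880 to 4637 in mock libraries. Smooth muscle genes were below 0 for 6 of 6 (sums 6309 to 17042 in ADT and 19153 to 31280 in mock libraries). Macrophage genes were below 0 for 10 of 10 and fibroblast genes for 6 of 6. Epithelial genes were below 0 for 7 of 9 (median -1.53). Their sums were 53676 to 90464 in ADT and 99296 to 134898 in mock libraries, without overlap. Platelet genes were below 0 for 3 of 7 (sums 493 to 1094 in ADT and 551 to 2513 in mock libraries). No gene of these lists was called, and their part in the endothelial values was not tested.

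The 10 genes varied together to a moderate degree. Over the 9 genotype libraries the 45 pairs of genes had a median Pearson r of 0.649 on the log2 scale, from -0.458 to 0.941, and over the 5 libraries of the inducible model 0.771, from -0.103 to 0.988. Tie1 followed the mean of the other 9 most closely over the genotype libraries (r = 0.990), and Emcn (0.317) and Vwf (0.356) least. In the inducible model Flt1 was the least alike (0.325). Group differences and library size enter each of these correlations.

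Of 11383 genes with a mean of at least 100 in both sets, the 8 whose levels followed the mean of the standardised endothelial genes most closely in both were Srpx2, Nxpe5, Cmklr1, Nos3, Scarf1, Dennd4a, Igfbp7 and Loxl1. The lower of the r over 9 and the r over 5 libraries ran from 0.974 for Srpx2 to 0.951 for Loxl1. Of these, Nos3, the endothelial nitric oxide synthase (0.962 and 0.987), was on the list of further endothelial genes, and Loxl1 encodes a matrix crosslinking enzyme. These points share libraries and groups, and no test was made of them.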

How the data were processed

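RNA of frozen prostate tissue and tumours, of integrity above 7.3, was sequenced from both ends (90 nt each) on a HiSeq 2000, to 6 Gb or more, per the labels' protocols. The submitters' processing notes name the build GRCm38.p3, DESeq2 1.14.1, HTSeq 0.6.0 and TopHat2 2.1.0 with Bowtie2 2.2.6.0, besides R 3.2.3 and FastQC 0.11.4, without the role of each. The deposited values are scores: gene counts that the authors scaled with size factors and then rounded, judging by the values, so the depth per gene and its counting precision are unknown. Because of the rounding and scaling no count test was run.

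The genotype files list 15195 features by Entrez number and the inducible model's 42847 by Ensembl identifier. Features without an Entrez number (631), Entrez numbers given to several features (118) and features repeating a gene's values (387 and 3668) were left out, and 15208 missing symbols of the inducible model were filled from a gene name table. The genotype files hold no gene with a mean under 15.6, so a gene missing there was not shown to be silent. Replicate libraries held identical values for at most 1.08% of genes with a mean of at least 50, and none was counted as a duplicate.

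Values were taken as log2(value + 1), with genes kept at a value of at least 1 in 3 of the 9 genotype libraries or 2 of the 5 of the inducible model. limma 3.58.1 (R 4.3.3) fitted the 9 libraries of the Ctnnb1, combined and wild-type groups together and the 5 of the inducible model alone, with a trend in the prior variance. SE is the moderated standard error. The fit was also run on values simulated from its own model with normal spread, which cannot test whether that model holds for these libraries. No term for age was fitted, since age and group differ together. Python 3.11.15, pandas 2.3.3 and matplotlib 3.10.9 were used, and gene positions came from GENCODE M21 (GRCm38).

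The members and lists were chosen with earlier results of these data known. The rule for names takes the 10 members, every called gene of another list where up to 4 were called and otherwise the 4 with the smallest p, and for ADT the 3 with the smallest p. Called genes of the epithelial, smooth muscle, macrophage and fibroblast lists, and Cd34, are given as counts only. The alternatives were another pseudocount, filter, scaling or prior variance, leaving out each library, other sets of fitted libraries, and a replicate block. A further genotype group, which entered an alternative fit, and comparisons that rest on the further engineered change alone are not reported here.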

Additional observations from a re-analysis of the deposited data

How the results depend on the processing

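Direction and call were the same for most results under most alternatives. Setting libraries to equal totals gave 6 members called (5 higher) and a member median of 0.66 in the Ctnnb1 group, where Pecam1 (0.37), Tek (0.05) and Cldn5 (0.01) changed sign and 8 of the 26 further endothelial genes were called, and a median of 1.4 in the combined group, where Emcn was at 0.33. Cdh5, Kdr and Flt1 in the Ctnnb1 group (adjusted p 0.00477, 0.0158 and 0.00215) and Cldn5 in the combined group (0.0291) passed the threshold at equal totals. With all 12 genotype libraries fitted, 3 of those 26 were called in the Ctnnb1 group, and the combined group had 5 members called. The cause was not tested. Leaving out each library in turn gave 2 to 4 members called in the Ctnnb1 group with a median of 0.04 to 0.35, and 5 to 9 with 0.76 to 1.06 in the combined group. Of the 26, it gave 4 to 5 called in the Ctnnb1 group and 11 to 23 in the combined group, and of the 8 tip cell genes 6 to 7 in each. These fits put Tie1 between -0.05 and 0.31 in the Ctnnb1 group, below 0 without wild-type replicate 3, and Emcn between -0.41 and 0.10 in the combined group, above 0 without combined replicate 12. For ADT over mock, the genes called numbered 5 at a pseudocount of 8, 172 with no filter, 60 with a mean of at least 50, 48 at equal totals, 29 with a robust prior, and 0 with no trend and without any 1 library (2334 to 3979 genes at an unadjusted p under 0.05). None of the 10 members was called under any of these. The member median under ADT ran from -1.47 to -0.26 when libraries were left out, with Kdr from -0.83 to 0.51 (0 without ADT replicate 1), Tie1 from -1.02 to 0.70, Emcn from -1.13 to 0.40 and Flt1 from -0.27 to 0.92, the ends being the fits without mock replicate 2 and without mock replicate 1. Where 1 mock library remained, its variation was taken to equal that of the ADT libraries. The ADT and mock libraries share replicate numbers 1 and 2, and no label says that these pair the samples. Deviations from the group means over 14520 genes had r = 0.27 for the libraries numbered 1 and 0.12 for those numbered 2, below the 0.19 of ADT replicate 3 with mock replicate 2. The deviations of the 2 mock libraries mirror each other, so these r are not separate and cannot decide whether the samples are paired. With the number as a replicate block 0 genes and 0 members were called, and the member median was -0.82. The alternatives over the lists of tip cell and further endothelial genes were chosen after seeing the data.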
